A study of Mus musculus with 10 samples.

Results

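Cell cycle and DNA replication genes were examined in the adult mouse dentate gyrus, as 35 of the 24982 rows of a table of read counts per gene. The 35 genes were chosen by name, and the table writes their symbols in capitals (MKI67, TOP2A and CDK1 for Mki67, Top2a and Cdk1). They comprise 5 D-type cyclins and kinases of G1, 4 cyclins and kinases of the G1/S boundary and S phase, 7 subunits of the replicative helicase and clamp, 3 enzymes of nucleotide supply and 16 genes of mitosis. RNA came from the micro-dissected dentate gyrus of 10 male C57BL/6 mice aged 10 weeks, of which 5 were wild type and 5 carried a global knockout of Fndc5, the gene of the precursor of irisin. Neither group is labelled with a treatment, and each mouse gave 1 library. How the Fndc5 allele was made, and whether the groups were littermates, is not given in the sources used here. The comparison asks whether transcripts of the division machinery differ between these genotypes, and which of them are detectable in this tissue at all.

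In a dividing cell, D-type cyclins with Cdk4 or Cdk6 inactivate the retinoblastoma family of pocket proteins, which frees E2F factors to transcribe the genes of DNA replication. Genes of mitosis are transcribed later, and their products are destroyed by the anaphase-promoting complex, a ubiquitin ligase. The dentate gyrus is one of few regions of the adult mammalian brain where neural progenitors still divide, in a thin layer below granule neurons that no longer divide. Oligodendrocyte precursors and endothelial cells also divide in adult brain.

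Libraries held 26226375 to 43802079 counts. Levels are given as CPM, counts scaled to a common library size, for 1 gene between mice, and as RPKM, CPM per kilobase of exon, wherever genes are compared with each other. Fndc5 itself was lower in every knockout mouse (45.4 to 56.7 CPM) than in every wild-type mouse (69.2 to 80.3 CPM), with a log2 fold change of -0.55 (SE 0.057) and an adjusted p of 0.000495 in edgeR. Granule neuron identity was visible in Prox1, at 43.7 RPKM in wild types, and Dcx of newborn neurons and Pdgfra of oligodendrocyte precursors stood at 1.84 and 4.12 RPKM. Summed over marker lists, newborn neuron genes gave 192 to 224 CPM in wild types and 164 to 211 in knockouts, neural stem cell genes 159 to 187 and 161 to 184, and oligodendrocyte precursor genes 185 to 217 and 193 to 211. Abundant genes weigh most in such sums. In wild types, Dpysl3, Sox11 and Calb2 had 64.8, 57.2 and 39.9 CPM against 23.2 for Dcx, and Hopx had 52.8 against 11.5 for Nes. Genes of CA pyramidal neurons, from the neighbouring hippocampal field, gave 223 to 319 CPM in wild types and 198 to 265 in knockouts. A lower mean in knockouts was found in 7 of the 7 measured. Their log2 fold changes ran from -0.45 for Cpne7 to 0.00 for Fibcd1, with a median of -0.07. The 2 of them at an unadjusted edgeR p under 0.05 were Cpne7 and Grik4 (-0.13). At that p there were also 2 of 8 granule neuron genes and 1 of 8 neural stem cell genes with a higher mean, and 1 of 7 newborn neuron genes with a lower one. Over all 14867 genes tested, 6.29% had such a p and 7325 had a lower mean in knockouts. The part of these cell types in the results below was not tested.

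Most cell cycle transcripts were detectable, but far from equally. Of the 35 genes, 34 had more than 3 counts in every library, 32 had at least 10, and 33 passed the filter on low counts and entered the test. Over the whole table, 60.3% of rows had more than 3 counts in every library. The mean wild-type level was 10 CPM or more for 10 of the genes, between 1 and 10 CPM for 19, and under 1 CPM for 6, which were Cdk1, Cdc20, Ube2c, Aurkb, Bub1 and Ccnb1. Per kilobase of the union of exons, the highest of the 35 in wild types, Ccnd2, stood 223 times above the lowest, Bub1. Ccnb1 was close to Bub1 in wild types (0.0731 and 0.0723 RPKM) and below it in knockouts (0.0409 and 0.0653). This factor was not computed with another length. The 19 genes of G1 and S phase held 93.7% of all counts of the 35, with a median of 1.61 RPKM in wild types, and 12 of them reached 1 RPKM. The 16 genes of mitosis held 6.31%, or 661 to 1413 counts per library, with a median of 0.317 RPKM, and only Plk1 and Bub1b reached 1 RPKM. In bulk tissue, the number of cells that hold a transcript and its RNA per cell cannot be told apart. Which cells, dividing or not, hold these transcripts was not tested.

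**Figure D1:**
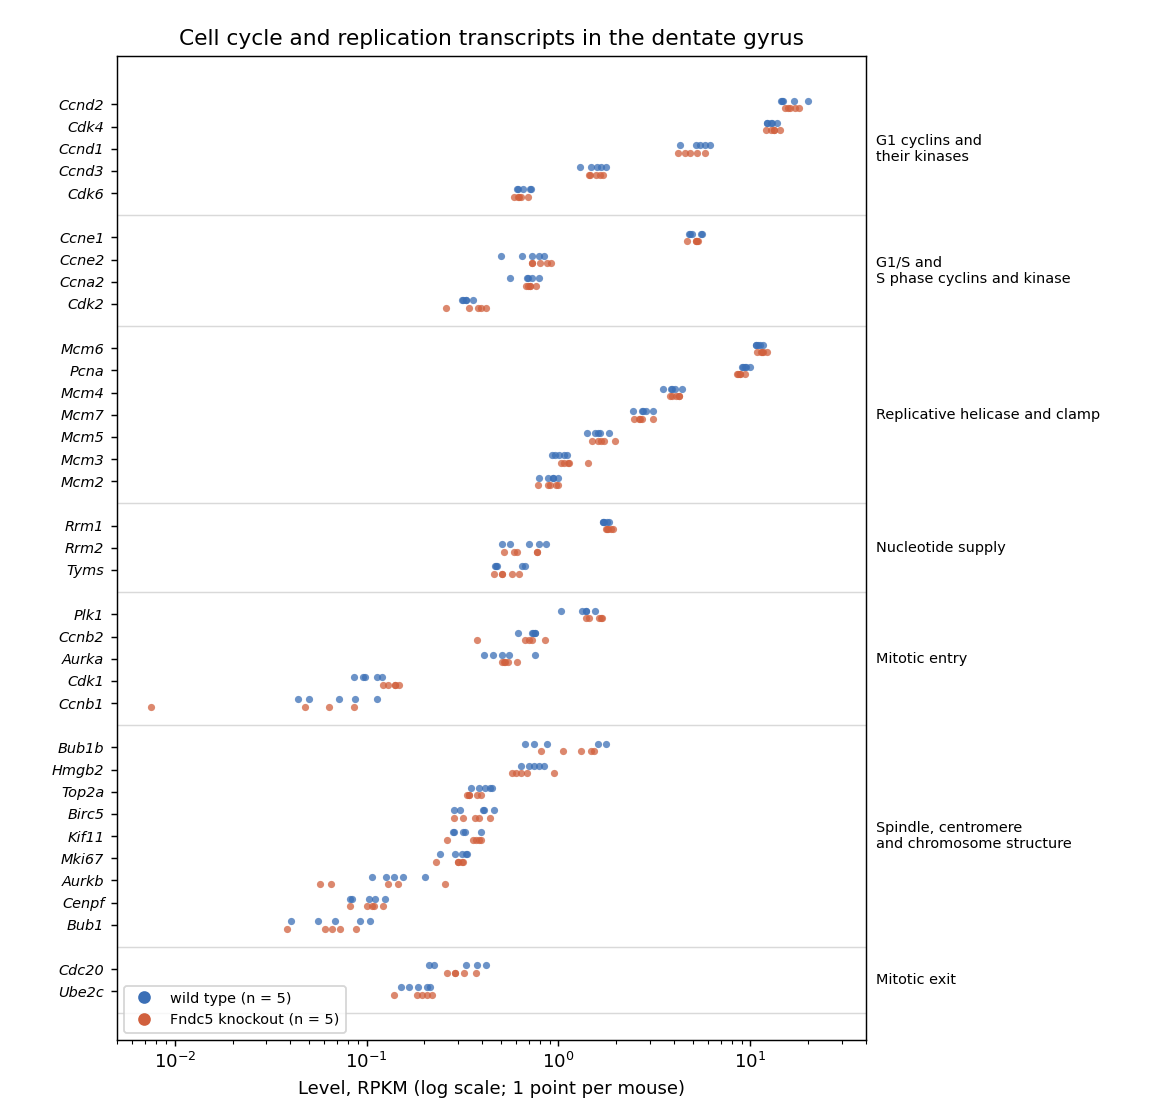
Level of each of the 35 transcripts in RPKM on a log scale, 1 point per mouse, with wild types and Fndc5 knockouts (n = 5 each) in separate colours and genes grouped by role. Wild-type means run from Ccnd2, at 16.1 RPKM, to Ccnb1 and Bub1, at 0.0731 and 0.0723, and the genotypes overlap in nearly every gene. Ccnb1 of knockout mouse 4 was 0 and is not drawn.

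Among the regulators of G1, Ccnd2 was the highest of the D-type cyclins, which bind Cdk4 and Cdk6. Its level was 16.1 ± 2.33 RPKM in wild types and 16.4 ± 1.12 RPKM in knockouts (mean ± SD, n = 5 each). In CPM, wild-type mice 1 to 5 had 187, 136, 159, 137 and 139, and knockout mice 1 to 5 had 161, 148, 168, 151 and 142. Wild-type mouse 1 was the highest and the genotypes overlapped throughout, with a log2 fold change of 0.02 (SE 0.076). Ccnd1 had 5.40 ± 0.709 and 4.94 ± 0.630 RPKM, and Ccnd3 had 1.56 ± 0.182 and 1.56 ± 0.114 RPKM. The RPKM of Ccnd2 exceeded that of Ccnd1 by a factor of 3.19 ± 0.539 (SD over 10 mice, range 2.33 to 4.07), and that of Ccnd3 by 10.4 ± 1.06. Both factors were above 1 in 10 of 10 mice, and with the longest transcript as the length they were 3.77 and 6.82. Cdk4 stood at 12.8 ± 0.639 RPKM in wild types and Cdk6, its close relative, at 0.660 ± 0.0518. Of the log2 fold changes, Ccnd1 had -0.13 (SE 0.093), Ccnd3 0.00 (SE 0.081), Cdk4 0.04 (SE 0.051) and Cdk6 -0.07 (SE 0.076), and the genotypes overlapped in all 4 genes. The signs of Ccnd2 and Ccnd3 depended on single mice, with ranges of -0.01 to 0.11 and -0.05 to 0.05 as each library was left out.

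The cyclins that start S phase also differed between paralogues. Ccne1, which activates Cdk2 at the G1/S boundary, had 5.15 ± 0.377 RPKM in wild types and 5.14 ± 0.262 in knockouts. Its paralogue Ccne2 had 0.701 ± 0.133 and 0.808 ± 0.0862 RPKM. The ratio of Ccne1 to Ccne2 was 6.99 ± 1.27 over the 10 mice (range 5.75 to 9.97). Ccna2, the cyclin of S phase and G2, stood at 0.691 ± 0.0853 RPKM in wild types, and Cdk2 at 0.330 ± 0.0180. In CPM, Ccne2 had 2.77, 2.27, 2.93, 2.53 and 1.75 in wild-type mice 1 to 5 and 3.21, 2.53, 3.04, 2.80 and 2.54 in knockout mice 1 to 5. Wild-type mouse 5 was the lowest and the other values overlapped, with a log2 fold change of 0.19 (SE 0.138, 95% interval -0.10 to 0.49) that was 0.10 without that mouse.

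Subunits of the MCM helicase, which assemble into 1 ring of 6 different proteins that unwinds DNA at the fork, were present at unequal RNA levels. Mcm6 led with 11.1 ± 0.393 RPKM in wild types and 11.5 ± 0.510 in knockouts, followed in wild types by Mcm4 at 3.95 ± 0.316, Mcm7 at 2.77 ± 0.235, Mcm5 at 1.61 ± 0.157, Mcm3 at 1.02 ± 0.0736 and Mcm2 at 0.908 ± 0.0747. With the union of exons as the length, neighbours in this order from Mcm6 down to Mcm3 were separated by more than their SDs. Mcm3 and Mcm2 overlapped within them. These SDs are between mice and do not cover error in the length. Mcm6 exceeded Mcm2 by a factor of 12.5 ± 1.44 (SD over 10 mice, range 11.3 to 15.6) and Mcm4 by 2.83 ± 0.215, in 10 of 10 mice each. With the longest transcript as the length, the factor was 6.75 over Mcm2 and 3.03 over Mcm4. The level of Mcm2 relative to Mcm6 thus depended on the length used. Mcm3, Mcm5 and Mcm7 were not set against Mcm6 with that length, so the order holds for the union of exons only. Mcm6 had 50.0 to 54.5 CPM in wild types and 50.6 to 57.2 in knockouts, a log2 fold change of 0.06 (SE 0.042). Mcm3 had 3.49 to 4.16 CPM in wild types and 3.88 to 5.36 in knockouts, with knockout mouse 4 alone above 5 CPM, and a log2 fold change of 0.19 (SE 0.107, 95% interval -0.04 to 0.41) that was 0.10 without that mouse. Pcna, the sliding clamp that also serves DNA repair, had 23.8, 22.8, 22.6, 21.6 and 22.1 CPM in wild-type mice 1 to 5 and 22.4, 20.7, 21.2, 21.2 and 20.5 in knockout mice 1 to 5. Knockout mouse 1 alone lay within the wild-type range, and Pcna had a log2 fold change of -0.09 (SE 0.048, 95% interval -0.19 to 0.01).

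Of the enzymes that supply deoxynucleotides, Rrm1, the large subunit of ribonucleotide reductase, had 1.76 ± 0.0543 RPKM in wild types and 1.83 ± 0.0645 in knockouts. Rrm2, the small subunit made in S phase, had 0.684 ± 0.150 and 0.652 ± 0.114 RPKM, and Tyms, thymidylate synthase, had 0.547 ± 0.101 and 0.533 ± 0.0622. Their log2 fold changes were 0.06, -0.08 and -0.04, with 95% intervals of -0.05 to 0.16, -0.44 to 0.28 and -0.32 to 0.24.

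Transcripts of mitotic entry had a median of 0.536 RPKM in wild types, beside 0.684 for those of nucleotide supply, with overlap between the groups. Plk1, a kinase of centrosome maturation and spindle assembly, had 1.34 ± 0.185 RPKM in wild types, against 0.717 ± 0.0576 for the cyclin Ccnb2, 0.536 ± 0.133 for the spindle kinase Aurka and 0.103 ± 0.0137 for Cdk1, the kinase that drives mitosis. Plk1 had 2.28, 3.39, 2.93, 3.07 and 3.05 CPM in wild-type mice 1 to 5 and 3.69, 3.65, 3.58, 3.07 and 3.19 in knockout mice 1 to 5. Wild-type mouse 1 was the lowest, the genotypes overlapped, and Plk1 had a log2 fold change of 0.23 (SE 0.117, 95% interval -0.02 to 0.48). Without that mouse the log2 fold change was 0.15, and its edgeR adjusted p over all libraries was 0.789.

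Cdk1 had 0.426, 0.559, 0.591, 0.472 and 0.483 CPM in wild-type mice 1 to 5 and 0.731, 0.690, 0.602, 0.640 and 0.693 in knockout mice 1 to 5. These values rest on 13 to 26 counts per library. Every knockout mouse lay above every wild-type mouse, with 0.602 against 0.591 CPM at the boundary. Cdk1 was the only 1 of the 33 genes tested whose genotypes did not overlap, which is 3.03%, beside 0.895% of all genes tested, or 0.457% with knockouts above as here. Its log2 fold change of 0.39 (SE 0.193, 95% interval -0.02 to 0.80) had an unadjusted edgeR p of 0.0697 and an adjusted p of 0.789, and was therefore not past the threshold. The spread of the Cdk1 counts around the genotype means was 0.222 times that of counting error (8 degrees of freedom).

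Ccnb1, the main cyclin partner of Cdk1, was the only 1 of the 35 at 0 in a library. It had 12, 6, 21, 9 and 5 counts in wild-type mice 1 to 5 and 1, 11, 7, 0 and 7 in knockout mice 1 to 5. The 0 in knockout mouse 4 allows up to 0.101 CPM, the level that 3 counts would give there; such limits cover counting error only. Bub1, a kinase of the spindle checkpoint, had 5 to 20 counts in wild types and 5 to 10 in knockouts. Both genes fell short of the low-count filter, and with no filter their log2 fold changes were -0.89 (95% interval -1.94 to 0.16) and -0.19 (95% interval -0.89 to 0.51), intervals that hold 0 as well as changes of more than 1.5-fold.

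**Figure D2:**
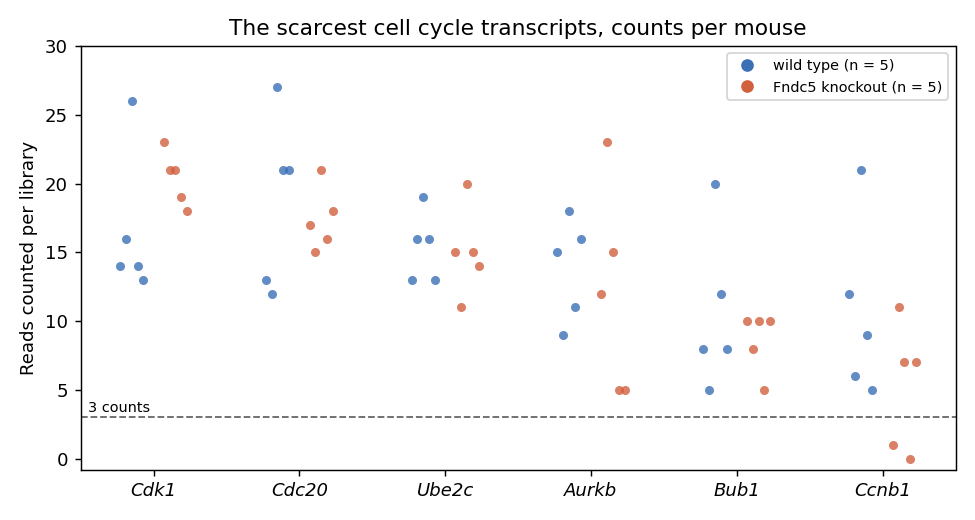
Reads counted per library for the 6 transcripts with a mean under 1 CPM in wild types, 1 point per mouse and 5 mice per genotype. All values lie at or below 27 counts; Ccnb1 reaches 0 in knockout mouse 4, and Cdk1 is shown in counts, which do not correct for the depth of the library.

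Transcripts of the spindle and of chromosome structure included Mki67, the antigen used to count dividing cells, and Top2a, the topoisomerase that untangles sister chromosomes. Mki67 had 0.302 ± 0.0368 RPKM in wild types and 0.292 ± 0.0353 in knockouts. In CPM it had 2.92, 2.44, 3.18, 3.34 and 3.31 in wild-type mice 1 to 5 and 3.18, 3.19, 3.01, 2.32 and 3.00 in knockout mice 1 to 5. Wild-type mouse 2 and knockout mouse 4 were low, and the genotypes overlapped throughout. The log2 fold change of Mki67 was -0.05 (SE 0.122, 95% interval -0.31 to 0.21), and 0.02 without knockout mouse 4. Top2a had 3.16, 3.74, 4.07, 3.94 and 3.49 CPM in wild-type mice 1 to 5 and 3.08, 3.02, 3.07, 3.57 and 3.39 in knockout mice 1 to 5. Knockout mice 1, 2 and 3 lay below all wild types and the other two within their range. The log2 fold change of Top2a was -0.20 (SE 0.104, 95% interval -0.42 to 0.02), and edgeR gave it an adjusted p of 0.792.

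The remaining genes of this group lay between 0.0723 and 1.14 RPKM in wild types. Hmgb2, a chromatin protein, had 0.743 ± 0.0791, Birc5 and Aurkb of the chromosomal passenger complex had 0.373 ± 0.0739 and 0.146 ± 0.0360, the spindle motor Kif11 had 0.322 ± 0.0464 and the kinetochore protein Cenpf had 0.101 ± 0.0180 RPKM. Log2 fold changes were -0.10, -0.06, -0.12, 0.12 and 0.04, and the 95% interval of Aurkb, which had 5 to 23 counts per library, ran from -0.85 to 0.61. Of the factors of mitotic exit, the cyclosome activator Cdc20 had 0.312 ± 0.0917 and the ubiquitin-conjugating enzyme Ube2c 0.185 ± 0.0266 RPKM in wild types, with log2 fold changes of -0.02 and 0.04. Fzr1, the activator of the same ligase in cells that have left mitosis, exceeded Cdc20 by a factor of 38.8 ± 8.70 in RPKM (SD over 10 mice, range 29.3 to 57.7), or 54.7 with the longest transcript as the length.

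Bub1b, the checkpoint protein BubR1, varied between mice more than any other of the 33 genes tested once counting error was removed. It had 3.74, 3.18, 7.57, 2.86 and 6.91 CPM in wild-type mice 1 to 5 and 6.52, 4.50, 6.33, 5.59 and 3.46 in knockout mice 1 to 5. High and low values occurred in both genotypes. The highest mouse stood 2.65 times above the lowest, against 1.44 times for Mki67, 1.35 for Top2a, 1.52 for Kif11 and 1.62 for Plk1, genes chosen after their values were seen. Beyond counting error, the variation of Bub1b within genotypes came to a coefficient of variation of 35.1%, and 3 of the 1677 genes with a mean count of 100 to 250 (0.179%, Bub1b among them) had at least that, beside a median of 8.03% in those 1677. Aurkb came close, at 33.7% on a mean of 12.9 counts, where its CPM ran from 0.168 to 0.756. The median over the 33 genes tested was 5.65%, and 21 of them had a variance under 2 times that of counting. The log2 fold change of Bub1b was 0.11 (SE 0.244, 95% interval -0.40 to 0.63), and between -0.02 (without wild-type mouse 4) and 0.36 (without wild-type mouse 3) as libraries were left out.

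**Figure D3:**
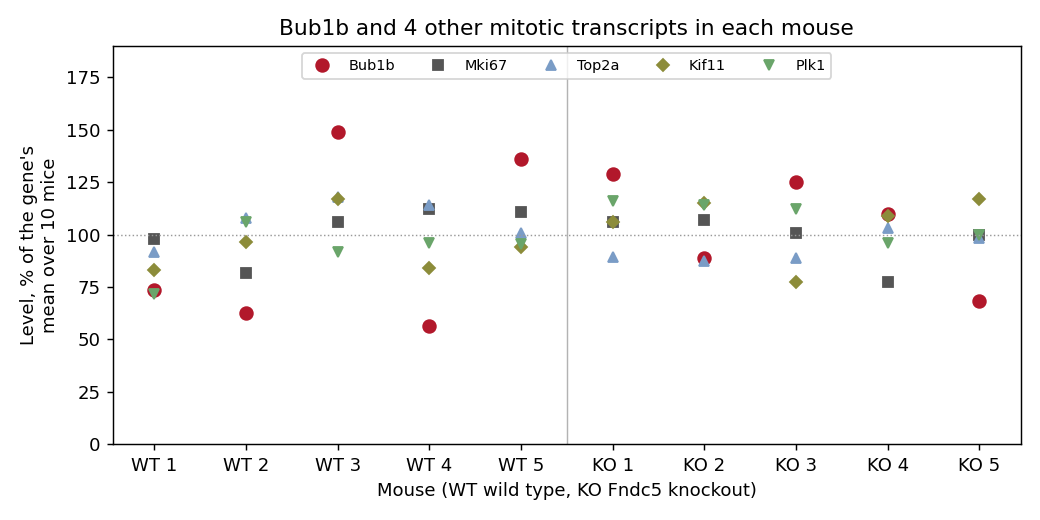
Level of Bub1b and of 4 other mitotic transcripts (Mki67, Top2a, Kif11 and Plk1) in each of the 10 mice, as a percentage of each gene's own mean over the 10 mice. Bub1b runs from 56.5% in wild-type mouse 4 to 149% in wild-type mouse 3, while Mki67 runs from 77.6% to 112%.

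No genotype difference passed the test in the 33 genes tested. None reached the adjusted threshold in edgeR (0.00673% of all genes tested did, which is Fndc5), and 0 had an unadjusted p under 0.05, beside 6.29% of all genes tested; DESeq2 likewise called 0 of them, and 0 at an unadjusted p under 0.05. Knockout means were higher in 17 and lower in 16. The median log2 fold change was 0.003, beside 0.002 over all genes tested, and values ran from -0.20 for Top2a to 0.39 for Cdk1, with 22 of the 33 within 0.1 of 0. All 33 of the 95% intervals held 0. They stayed within 1.5-fold in 30 genes and within 2-fold in 33, the exceptions at 1.5-fold being Cdk1, Bub1b and Aurkb. These intervals were wider than for most genes, with a median reach of 0.247 to either side on the log2 scale beside 0.137 over all genes tested. Narrower ones were found among the abundant genes, such as Mcm6, from -0.03 to 0.15.

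**Figure D4:**
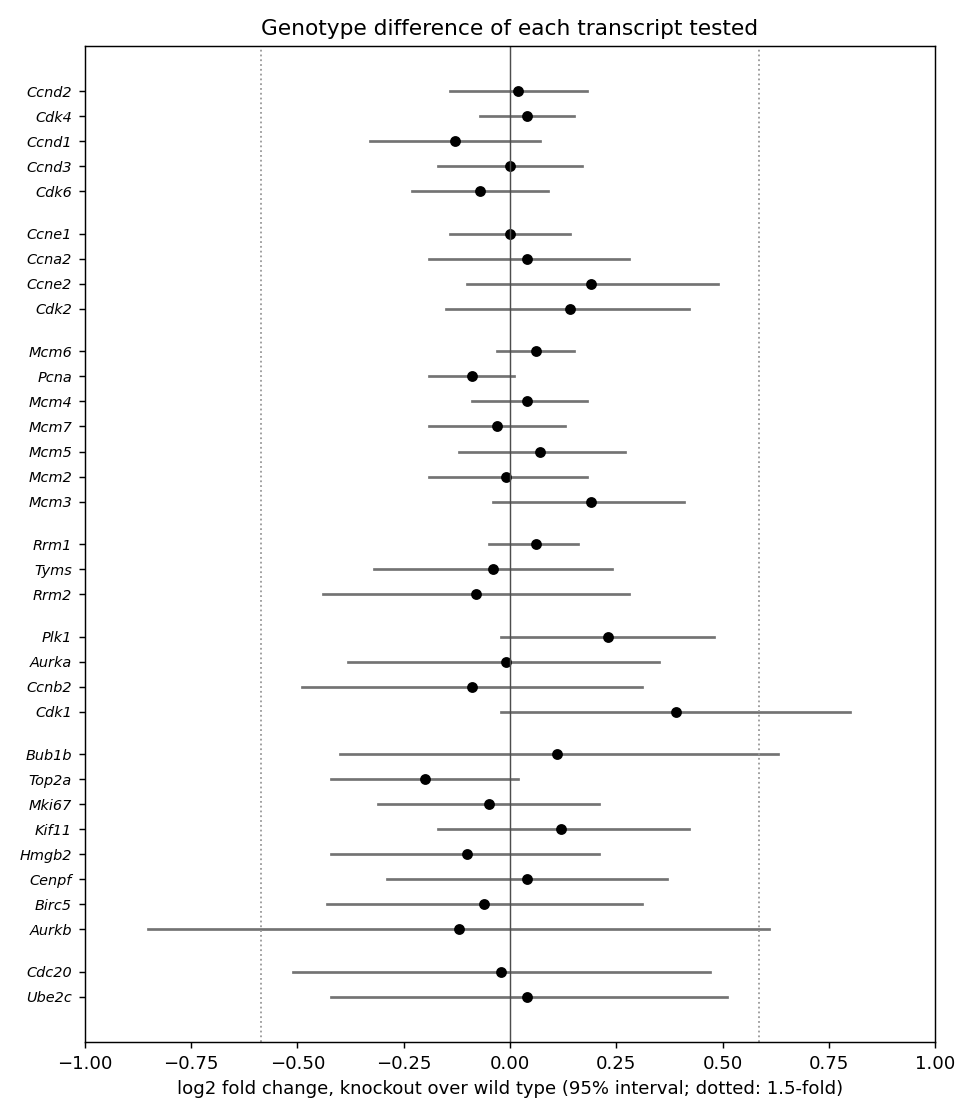
Log2 fold change of each of the 33 transcripts tested, knockout over wild type, with its 95% interval from the edgeR fit over 5 mice per genotype and dotted lines at 1.5-fold. Every interval holds 0, and those of Cdk1, Bub1b and Aurkb pass a dotted line.

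The promoters of the mitotic genes and of the G1 and S phase genes were compared by sequence. Genes of mitosis are known for the cell cycle genes homology region (CHR), a short element bound by complexes of MuvB with B-Myb, FoxM1 or pocket proteins, often next to CCAAT boxes bound by NF-Y, and genes of DNA replication for E2F sites. The 250 bases before the start in RefSeq (GRCm38.p6) were found for 29 of the 35 genes and searched on both strands for the CHR words TTTGAA and TTCGAA, for CCAAT, and for the E2F words TTTGGCGC, TTTCGCGC and TTTCCCGC, some of which overlap each other where they occur on opposite strands. A CHR word was found in 9 of 15 promoters of mitotic genes (60.0%), in 2 of 14 of G1 and S phase genes (14.3%) and in 17.4% of all 27025 promoters of that length. An E2F word was found in 1 of 15 (6.7%), 4 of 14 (28.6%) and 1.6%, and CCAAT in 14 of 15 (93.3%), 9 of 14 (64.3%) and 34.5%. A match describes letters only, and does not show that a factor binds there. Top2a (chr11:99024190-99024439, minus strand) is shown for its 4 CHR words and 6 CCAAT boxes, Cdk1 (chr10:69352913-69353162, minus strand) as the gene whose genotypes did not overlap, Cdc20 (chr4:118437344-118437593, minus strand) as a scarce gene of mitotic exit and Mcm6 (chr1:128359706-128359955, minus strand) as the highest helicase subunit, with 3 E2F words and 0 CHR words. Each is written 5′ to 3′ toward the gene, with the matched words of either strand in capitals.
Top2a: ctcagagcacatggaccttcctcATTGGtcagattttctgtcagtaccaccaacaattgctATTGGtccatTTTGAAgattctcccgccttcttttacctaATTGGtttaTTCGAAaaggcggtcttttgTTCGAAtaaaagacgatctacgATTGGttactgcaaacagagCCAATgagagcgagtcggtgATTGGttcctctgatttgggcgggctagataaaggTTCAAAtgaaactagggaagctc
Cdk1: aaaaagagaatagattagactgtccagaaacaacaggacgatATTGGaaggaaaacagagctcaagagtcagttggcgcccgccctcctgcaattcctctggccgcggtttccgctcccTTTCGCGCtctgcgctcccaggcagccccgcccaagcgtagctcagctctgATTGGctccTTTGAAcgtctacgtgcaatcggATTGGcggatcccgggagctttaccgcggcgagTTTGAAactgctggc
Cdc20: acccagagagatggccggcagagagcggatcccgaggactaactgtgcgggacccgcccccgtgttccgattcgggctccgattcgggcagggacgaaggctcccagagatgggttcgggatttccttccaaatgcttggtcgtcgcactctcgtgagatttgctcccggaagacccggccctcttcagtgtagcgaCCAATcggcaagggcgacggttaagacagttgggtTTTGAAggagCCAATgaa
Mcm6: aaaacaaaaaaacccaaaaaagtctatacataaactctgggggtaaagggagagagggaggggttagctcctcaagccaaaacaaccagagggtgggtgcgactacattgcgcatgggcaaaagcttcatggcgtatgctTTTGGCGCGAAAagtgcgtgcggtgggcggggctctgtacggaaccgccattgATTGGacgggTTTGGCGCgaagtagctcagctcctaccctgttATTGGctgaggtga
Cdk1 holds 1 E2F word beside its 2 CHR words. These 4 promoters do not show how levels relate to the words. Mcm7, at 2.77 RPKM in wild types, and Bub1b, at 1.14 RPKM, hold a CHR word, and Cdk2, at 0.330 RPKM, holds an E2F word and no CHR word.

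Around these 35 genes, 126 further genes of the same pathways were read in 6 lists, of which 121 were tested. Of these, 0 passed the adjusted threshold and 4 (3.31%) had an unadjusted edgeR p under 0.05, beside 6.29% of all genes tested. Knockout means were higher in 70 and lower in 51, with a median log2 fold change of 0.017. Among E2F factors and pocket proteins (18 tested, 6 higher and 12 lower), E2f4 and E2f3 had 12.3 and 9.88 RPKM in wild types, and the pocket proteins Rbl2 and Rb1, which hold E2F factors inactive, had 8.65 and 6.61. E2f1, an activator of S phase genes, had 1.71 RPKM, the mitotic activators Foxm1 and Mybl2 had 0.475 and 0.268, and the late repressors E2f8 and E2f7 had 0.0985 and 0.0359. The smallest p in this list belonged to E2f2 and E2f1, with log2 fold changes of -0.27 (SE 0.145) and 0.13 (SE 0.082). Of the inhibitors of cyclin-dependent kinases (6 of 7 tested, 4 higher and 2 lower), Cdkn2d, or p19, stood at 16.7 RPKM, Cdkn1b, or p27, at 8.98 and Cdkn1a, or p21, at 1.45, while Cdkn2a had 0 to 2 counts per library.

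Origin licensing held the widest pair, both scarce, with 17 to 34 counts per library for Cdt1 and 8 to 34 for Cdc6. Cdt1 and Cdc6 act together to load the MCM helicase onto DNA, and their differences had opposite signs. Cdt1 had 0.664 ± 0.0585 CPM in wild types and 1.01 ± 0.247 in knockouts, a log2 fold change of 0.58 (SE 0.204, unadjusted p 0.0115, edgeR adjusted p 0.788). Wild types had 0.606 to 0.760 CPM of it, and knockout mouse 3 alone, at 0.631 CPM, lay within that range. Cdc6 had 0.872 ± 0.204 CPM in wild types and 0.572 ± 0.216 in knockouts, with overlap, a log2 fold change of -0.60 (SE 0.261, unadjusted p 0.035, edgeR adjusted p 0.788). In that list 12 of 18 genes tested had a higher and 6 a lower mean in knockouts. At the fork, 19 of 24 genes had a higher mean, with Pold3, a subunit of DNA polymerase delta, at 29.0 ± 1.45 and 31.6 ± 0.768 CPM (log2 fold change 0.12, SE 0.046) and Rfc3, a subunit of the clamp loader, at a log2 fold change of 0.25 (SE 0.114), both at an adjusted p of 0.788 in edgeR. Pold3 was the only 1 of the 121 (0.826%) whose genotypes did not overlap, a share near the 0.895% of all genes tested. Tk1, of the same list as Pold3, fell short of the low-count filter at 3 to 11 counts per library and was not tested. It had 0.105 to 0.25 CPM in wild types and 0.258 to 0.318 in knockouts, also without overlap. The lists of mitotic kinases, spindle and kinetochore genes (35 tested, 16 higher and 19 lower) and of the cyclosome and mitotic entry (20 tested, 13 higher and 7 lower) had 0 genes at an unadjusted edgeR p under 0.05. Their smallest p belonged to Kif23 (0.36, SE 0.169) and Prc1 (-0.33, SE 0.164), both of the central spindle, and to the cyclosome subunits Cdc27 (-0.10, SE 0.049) and Anapc4 (-0.06, SE 0.042), as log2 fold changes. The listed subunits of the cyclosome differed widely in level, from Cdc26 at 1.01 and Anapc10 at 1.77 to Anapc2 at 20.4 and Anapc5 at 27.3 RPKM in wild types.

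Across the 10 mice, log2 CPM of Mki67 and Top2a gave a Pearson r of -0.11 (permutation p 0.752, adjusted 0.752 over 3 relations) and a Spearman rho of 0.03 (permutation p 0.947, adjusted 0.947). Top2a was also set against Dcx of newborn neurons (r 0.72, permutation p 0.0265, adjusted 0.0796 over 3 relations; rho 0.71, permutation p 0.029, adjusted 0.0869) and against Pdgfra of oligodendrocyte precursors (r -0.32, permutation p 0.351, adjusted 0.526; rho -0.30, permutation p 0.404, adjusted 0.606). None of the 3 passed the adjusted threshold. Within genotypes, the variance of Top2a was 0.893 times that of counting error, and that of Mki67 was 1.3 times. With so little spread beyond counting error, these relations cannot show whether the transcripts vary together between mice. With genotype means removed, r for Top2a and Dcx was 0.58 (permutation p 0.0806), and without the 2 mice farthest from the median of Top2a it was 0.55 (n = 8, permutation p 0.177), over fewer mice and a narrower range of Top2a. Without the 2 mice farthest from the median of Mki67, r was 0.51 for Mki67 and Top2a (permutation p 0.193). For Top2a and Pdgfra, without the 2 farthest from the median of Top2a, r was 0.26 (permutation p 0.513). Each was of the opposite sign to the value over 10 mice.

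Some of these genes overlap other annotated genes, and whether they share reads was not tested. In GENCODE M21, 18 of the 35 genes overlap no other gene, and 9 overlap, on the opposite strand, a gene that has its own row in the table. These are Ccnd2, Ccnd3, Cdk4, Ccne2, Ccna2, Cdk2, Mcm7, Cdc20 and Ube2c. The strand setting of the counting is not given in the sources used here, so reads of such partners cannot be told apart from those of the gene itself. The partners differed in abundance. Ints8 had 654 to 1483 counts per library against 47 to 129 for Ccne2, and Exosc9 had 794 to 1425 against 72 to 125 for Ccna2. Tnnc2, the partner of Ube2c, had 0 to 2. Ccnd3, Ccnb1, Ccnb2, Tyms and Pcna have annotated pseudogene copies that carry their names, and their levels are uncertain where reads match both. Copies annotated under other names were not searched for, so the other genes may have some too.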

How the data were processed

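Dentate gyrus RNA was measured in 10 libraries, 1 per mouse. Extraction used Trizol followed by a column kit, and 500 ng of total RNA entered a stranded mRNA kit sequenced as single-end reads of 75 bases on a NextSeq500, per the labels' protocols. The authors deposited raw read counts per gene symbol. STAR 2.5.1b, Cufflinks 2.2.1 and mm10 are named, without role or order, per the submitters' processing notes. The sources used here do not give the strand setting of the counting or how reads with several matches were treated.

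From these counts, filterByExpr kept 14867 genes, TMM scaled the libraries, and edgeR 4.0.16 (glmQLFit and glmQLFTest, R 4.3.3, limma 3.58.1) compared the genotypes, with genotype alone in the model, two-sided p-values, Benjamini-Hochberg adjustment over all genes tested and a threshold of 0.05. Intervals are 95% intervals from the t distribution with the degrees of freedom of the fit. RPKM was computed as CPM per kilobase of the union of exons in GENCODE M21. Counting error was taken as Poisson, and the coefficient of variation beyond it is the excess of the variance around genotype means. The 3 relations across mice were tested by two-sided permutation (100000 resamples). Libraries of 1 genotype differed by more than sampling noise (the closest pair had a chi-square of 4.47 per degree of freedom), so each counted as 1 replicate.

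Genes named are Fndc5, every one of the 35 by level, and, by fold change, Mki67, Top2a, Pcna, the D-type cyclins with Cdk4 and Cdk6, the 8 of the 35 with the smallest p and the 2 with the smallest p in each pathway list; other fold changes are named after their values were seen. The genes and lists were chosen with earlier results of these data known. The steps were tested on counts simulated for this comparison (14813 genes tested). There, 56.1% of 66 changes of 1.25-fold and 89.9% of 69 of 1.5-fold were recovered. A given p passes adjustment more readily among that many true changes than in the real counts, where edgeR called 1 gene. The 33 cell cycle genes tested also had wider intervals, with a median reach of 0.247 on the log2 scale beside 0.137 over all genes tested. These rates therefore do not give the power for the 35 genes. Alternatives were DESeq2 1.42.0, upper-quartile scaling, other filters, the mouse number as a block, spline corrections for GC content and length (4 degrees of freedom each), and each library left out. The longest transcript as the length was added after seeing the data.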

Additional observations from a re-analysis of the deposited data

Results flagged for a closer look

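In 96 groups of 5 mice, the highest or lowest mouse was checked for a gap to the other 4 that exceeds the 95% limit of Dixon's test. Such a gap was found in 9 groups, where chance gives about 4.8. Among the cell cycle genes, knockout mouse 4 had 12.5 CPM of Ccne1 (the other knockouts 13.8 to 14.2), 5.36 CPM of Mcm3 (the others 3.88 to 4.24) and 2.32 CPM of Mki67 (the others 3.00 to 3.19). Knockout mouse 3 had 1.95 CPM of Kif11 (the others 2.67 to 2.96), and wild-type mouse 2 had 0.943 CPM of Ccnb2 (the other wild types 1.11 to 1.16). Among the pathway genes, wild-type mouse 1 was the highest of its genotype for E2f1 at 5.99 CPM (the others 5.14 to 5.31), Cdkn2d at 29.7 CPM (25.0 to 25.9) and Anapc4 at 59.9 CPM (54.6 to 55.3). Knockout mouse 2 was the highest of its genotype for Cdc27 at 70.5 CPM (62.7 to 64.7).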

How the results depend on the processing

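Across the 16 alternatives, 0 of the 35 genes were called in any, and the smallest adjusted p among them ran from 0.543 to 0.999. The median log2 fold change of the genes tested ran from -0.014 to 0.036 as each library was left out, and was -0.019 after the GC and length correction. Over all genes, edgeR called 1, DESeq2 called 3, the fit with the mouse number as a replicate block called 8, and leaving out each library gave 1 to 3 (3 without wild-type mouse 1, 2 without knockout mouse 2). The labels do not say that a shared number pairs mice. The correlations of deviations of same-numbered mice were 0.283, 0.264, 0.134, 0.0173 and 0.0508, not all above 0.1, so the numbers were not taken to pair them, although 5 of 10 libraries correlated best with their own number. The number of genes among the 35 whose genotypes did not overlap was 1, and 1 to 2 as each library was left out (Cdk1, with Pcna added without knockout mouse 1), beside 1.16% to 2.73% of all genes tested. At an unadjusted edgeR p under 0.05 there were 0 to 1 of them as libraries were left out, with 1 in 7 of the 10 fits (Top2a without wild-type mouse 1, Plk1 without wild-type mouse 2 or knockout mouse 4, Cdk1 without wild-type mouse 3, Ccnd1 without wild-type mouse 4 or knockout mouse 2, and Pcna without knockout mouse 1), beside 3.72% to 8.27% of all genes tested. Ccne2 was the 1 after the GC and length correction. That correction turned Ccnd3 from 0.00 to -0.03. Leaving out each library gave log2 fold changes of -0.01 to 0.11 for Ccnd2, -0.05 to 0.05 for Ccnd3, -0.02 to 0.36 for Bub1b and -0.11 to 0.02 for Mki67. The correlation of Mki67 with Top2a was 0.51 without the 2 mice farthest from the median of Mki67. That of Top2a with Pdgfra was 0.26 without the 2 farthest from the median of Top2a. The causes of these shifts were not tested. Counting error was largest, relative to the level, in the 6 genes under 1 CPM.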

Other observations

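Mcm6, the highest of the helicase subunits, lies 3272 bases from Lct on chromosome 1, on the same strand, with Lct downstream of Mcm6. Lct, a marker of granule neurons in mouse, had 217 ± 8.47 CPM in wild types and 235 ± 21.0 in knockouts (mean ± SD, n = 5 each), or 33.8 and 36.7 RPKM. Bub1b lies 21712 bases from Pak6 on chromosome 2, on the same strand. Pak6 had 76.2 to 101 CPM over the 10 mice, while Bub1b had 2.86 to 7.57. Any link between the levels of these neighbours was not tested.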
